A study of Schizosaccharomyces pombe with 8 samples.

Results

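The fission yeast strain carrying prp1-G705D, a temperature-sensitive allele of the tri-snRNP protein gene prp1, was compared with wild type at the level of single introns. An intron was taken where the prp1-G705D library and both WT libraries each held at least 20 reads, spliced plus unspliced, which left 2641 of 5144 annotated introns. They lay in 1435 genes, and 13 of them had no gene match. The compared value is the unspliced share, the unspliced reads of an intron as a percentage of its spliced plus unspliced reads. The prp1-G705D strain (ts106A18) gave 1 library and wild type (WT, strain ED666) gave 2. Cells of every strain grew in YPD at 25 °C to mid-log phase and were then held at 37 °C for 15 minutes, so the WT cells had the same heat shift. Poly(A) RNA was selected, and directional libraries were made from 1 µg of total RNA. The series also holds 1 library each of prp10-R379H, sap114-A152V, cwf22-G191D, prp22-V801M;G917R and ntr1-W597R, all treated alike and used here only to place prp1-G705D. The labels give each mutant genotype at the named gene alone, and no sample of prp1-G705D kept at 25 °C was analysed here.

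Introns are removed by the spliceosome, which assembles anew on each intron from small nuclear ribonucleoproteins (snRNPs). U1 and U2 mark the 5′ splice site and the branch site, and the U4/U6.U5 tri-snRNP then joins and is rearranged into the active enzyme. Prp1, the counterpart of Prp6 of budding yeast and of PRPF6 in humans, is a U5 protein that bridges U5 to U4/U6 within the tri-snRNP. Fission yeast genes commonly hold several short introns, so that 1 strain offers many substrates for the same machine.

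Summed over annotated introns, the libraries held 1139031 reads for prp1-G705D, 420473 for WT replicate 1 and 846804 for WT replicate 2. The median depth of a tested intron was 145 reads, 55 reads and 109 reads in that order. The totals of the WT libraries differed per intron by more than sampling noise (chi-square 6019, 2640 degrees of freedom), so they were counted as 2 samples. Nothing in the labels says that the WT libraries came from separate cultures. The p-values against WT measure only the spread between these libraries, pooled over introns, which may be technical. The table holds no annotated intron matched to prp1 itself, and the point mutation was not checked in the reads. The share is a level in poly(A) RNA and gives no rate of splicing or of decay.

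The introns below are shown because they span the range of the prp1-G705D response, from the largest rises through introns of 1 gene that differed from each other to introns with the smallest changes. The sequences are those of the reference assembly ASM294v3, 5′ to 3′ on the strand of the gene, at introns whose deposited ends match the reference annotation. Capitals mark the first 6 bases (the 5′ splice site), the last 3 bases (the 3′ splice site) and, between them, an inferred branch motif. That motif is the last match within the final 60 nt, on the strand of the gene and outside the last 3 bases, to CTAAC, to the form of it that ends in T, or to either of these with G for its first A. It was found in 2043 of the 2641 introns (77.4%), and branch sites are not annotated in the reference.
cnt5 intron 3: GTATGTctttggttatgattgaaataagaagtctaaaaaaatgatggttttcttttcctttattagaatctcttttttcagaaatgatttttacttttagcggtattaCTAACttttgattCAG
SPAPB1A10.08 intron 1: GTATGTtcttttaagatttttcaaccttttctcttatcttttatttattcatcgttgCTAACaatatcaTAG
ppk15 intron 1: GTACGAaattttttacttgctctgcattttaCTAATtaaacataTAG
osh42 intron 4: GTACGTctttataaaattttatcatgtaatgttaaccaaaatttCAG
osh42 intron 1: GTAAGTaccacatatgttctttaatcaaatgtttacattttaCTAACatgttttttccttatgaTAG
lsm1 intron 2: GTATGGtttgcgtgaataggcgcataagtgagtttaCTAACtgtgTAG
lsm5 intron 3: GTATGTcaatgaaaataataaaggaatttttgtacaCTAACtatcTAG
tbp1 intron 2: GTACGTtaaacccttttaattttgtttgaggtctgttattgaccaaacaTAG
tbp1 intron 3: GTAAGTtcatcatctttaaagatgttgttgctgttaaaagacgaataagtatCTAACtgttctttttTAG
nda3 intron 5: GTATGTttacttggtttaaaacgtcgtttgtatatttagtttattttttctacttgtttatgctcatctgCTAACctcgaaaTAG
pfd3 intron 1: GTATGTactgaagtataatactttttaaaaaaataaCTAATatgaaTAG
rpe1 intron 1: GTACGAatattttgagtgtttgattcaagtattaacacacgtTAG
Among the introns shown, cnt5 intron 3, with the largest rise, and lsm5 intron 3 and pfd3 intron 1, which had no call, all begin with GTATGT, while osh42 intron 4, which also rose, begins with GTACGT. These were picked after their values were seen. The shares of these introns are given with their genes.

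Most introns were retained more often in prp1-G705D than in WT, and to very different degrees. The median unspliced share over the 2641 introns was 38.2% in prp1-G705D, 4.88% in WT replicate 1 and 5.95% in WT replicate 2. The WT mean was 5.42% ± 0.760 (SD, n = 2), and the prp1-G705D median lay 32.8 percentage points above it. With 1 library against 2, an exact permutation test over libraries cannot go below p = 0.333, so sizes are described. The quartiles over introns in prp1-G705D were 23.1% and 57.5%, and the 10th and 90th percentiles were 14.1% and 77.4%. In prp1-G705D 124 introns had a share under 10%, 611 lay from 10% to 25%, 1009 from 25% to 50%, 589 from 50% to 75% and 308 at 75% or above. In the WT libraries 1832 and 1782 introns had a share under 10%, and 136 and 146 had a share over 50%, against 885 in prp1-G705D. Over the summed reads of all 2641 introns the share was 41.6% in prp1-G705D (95% Wilson interval 41.5% to 41.7%), 11.7% in WT replicate 1 and 12.5% in WT replicate 2. Such intervals cover counting error only, since reads copied by PCR are not independent molecules.

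**Figure D1:**
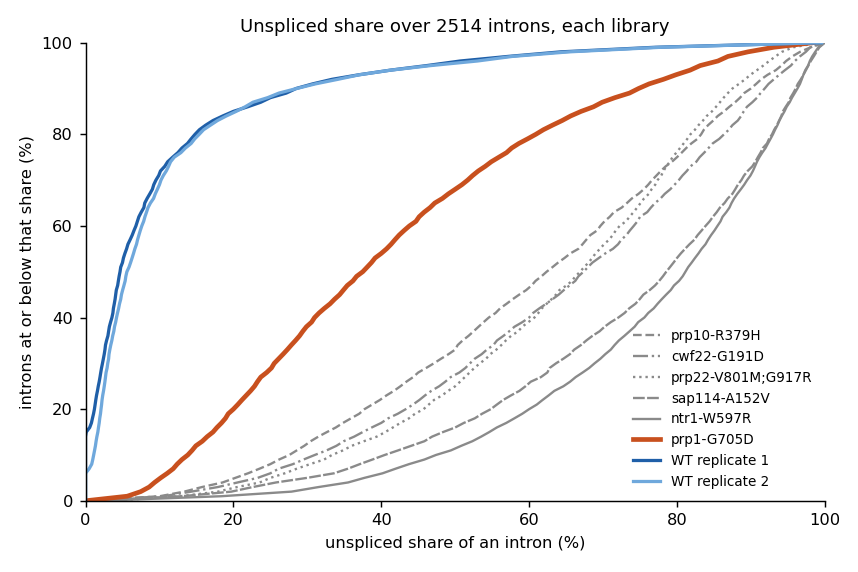
Percentage of 2514 introns (y axis) at or below a given unspliced share in percent (x axis), 1 line per library, for introns with at least 20 reads in all 8 libraries. The prp1-G705D line, with its median at 37.5%, runs between the WT lines on the left and the lines of the other 5 mutants, whose medians lie from 62.4% to 81.1%.

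Per intron, the prp1-G705D share exceeded that of both WT libraries in 2609 introns (98.8%), lay between them in 23 and was below both in 9 (0.341%). The median rise over the WT mean was 28.4 points, and the 5th and 95th percentiles were 6.75 and 57.5 points. The corresponding difference of WT replicate 2 from replicate 1 had a median of 0.663 points, with percentiles of -9.09 and 9.02. The change in prp1-G705D was larger than the difference between the WT libraries in 2584 introns (97.8%). A rise of over 10 points was seen in 2372 introns, of over 25 points in 1527 and of over 50 points in 336. In edgeR's quasi-likelihood F test on the spliced and unspliced reads, at a Benjamini-Hochberg (BH) adjusted p under 0.05, 2411 introns (91.3%) in 1349 genes were called higher and 2 (0.0757%) lower. The spread in that test comes from the WT pair alone, and the lone mutant library is assumed to vary in the same way. That spread was pooled over all introns, so a small adjusted p does not reflect the WT spread of the single intron. The 228 introns without a call had a median depth of 31 reads in their shallowest library, against 60 among those called higher. Of the 228, 41 already had a WT share over 50%, which 141 of all 2641 introns had.

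The size of the change followed the level in WT. Introns with a WT share under 2% had a median share of 20% in prp1-G705D (519 introns), and those from 2% to 5% had 27.8% (713 introns). The median was 40.0% where the WT share was 5% to 10%, 55.1% at 10% to 25%, 74.2% at 25% to 50% and 88.2% at 50% or more (141 introns). In points the rise was widest at a WT share of 25% to 50%, with a median of 39.6, and on the log2 scale of the odds of being unspliced it fell from 4.03 in the lowest class to 1.62 in the highest. Both differences contain the WT share that sorts the introns, so the order of these classes is a description.

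**Figure D2:**
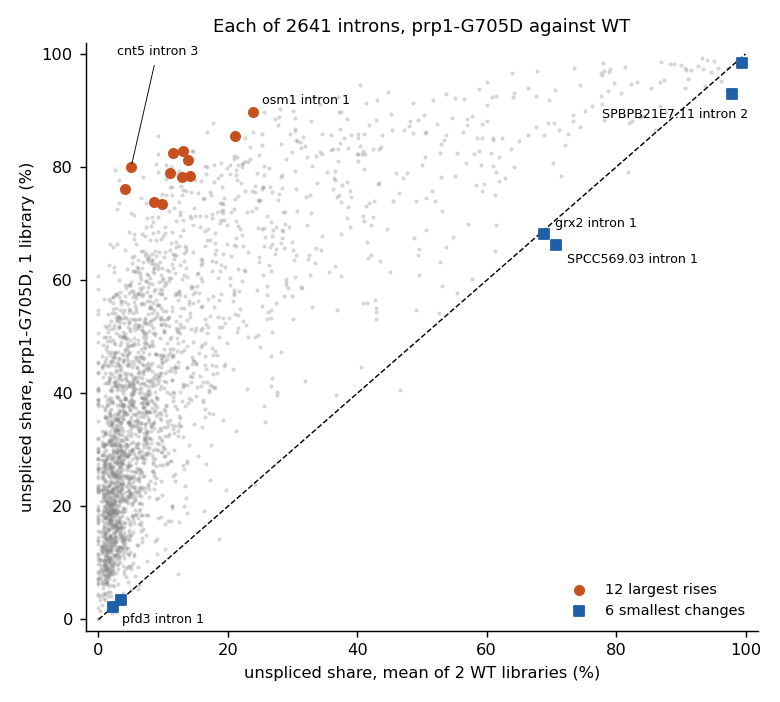
Unspliced share in percent of each of 2641 introns in prp1-G705D (y axis, 1 library) against the mean of 2 WT libraries (x axis); the dashed line marks equal shares. Grey points fill the area above the line, and the 12 introns with the largest rises (orange circles) sit between 73.5% and 89.8% in prp1-G705D. The 6 labelled smallest changes (blue squares) have the lowest signed changes, falls included, so they lie on or below the line by choice. Both sets were taken among introns with at least 50 reads in each of the 3 libraries, 1 per gene.

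The introns with the largest rises belonged to genes of unlike function. Intron 3 of cnt5, which encodes a centaurin, spans II:2184099-2184222 and was unspliced in 3.85% and 6.25% of reads in WT replicates 1 and 2 and in 80.0% in prp1-G705D (95% Wilson interval 73.8% to 85.0%). The prp1-G705D value lay 74.95 points above the WT mean of 5.05% ± 1.70 (SD, n = 2), and edgeR gave a log2 change in the odds of 6.10 ± 0.61 (SE) with an adjusted p of 2.17e-21. Intron 1 of SPAPB1A10.08, an uncharacterized protein gene, spans I:1876887-1876958 and stood at 4.598% and 3.75% in WT and at 76.2% in prp1-G705D. Both introns stood far above their WT pair, whose values were close to each other.

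Genes of transcription control were also among these 12 introns. Intron 2 of tup12, a transcriptional corepressor gene, stood at 11.9% and 11.2% in WT and at 82.4% in prp1-G705D. Intron 1 of hsf1, which encodes the heat shock transcription factor, stood at 10.3% and 15.7% in WT and at 82.9% in prp1-G705D. Intron 1 of eaf1, for an elongation factor of RNA polymerase II, stood at 6.90% and 18.8% in WT and at 78.3%. The WT libraries were furthest apart for eaf1, by less than the distance to prp1-G705D.

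Genes of ribosome assembly and metabolism were among the others. Intron 3 of nog1, a GTPase of large ribosomal subunit assembly, stood at 8.89% and 8.33% in WT and at 73.9% in prp1-G705D. Intron 1 of mrt4, another ribosome assembly factor, stood at 19.8% and 22.4% in WT and at 85.5%. Intron 2 of uge1, the UDP-glucose 4-epimerase of galactose metabolism, stood at 15.6% and 11.96% in WT and at 81.2%. The rises at these 3 introns ran from 64.4 to 67.4 points. The list was completed by introns of the kinase gene ppk15 (78.9%, WT 10.7% and 11.5%), the fumarate reductase gene osm1 (89.8%, WT 24.3% and 23.5%), the mitochondrial membrane insertase gene oxa101 (78.4%, WT 11.1% and 17.3%) and SPAC26H5.07C (73.5%, WT 9.05% and 10.4%). No prp1-G705D value among the 12 overlapped its WT pair. The 12 were chosen by the size of the rise, so that gap follows from the choice.

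At the other end stood introns with close shares in both strains, some mostly spliced and some mostly unspliced. Intron 1 of pfd3, a subunit of the chaperone prefoldin, spans I:601426-601474 and was unspliced in 1.94% and 2.49% of reads in WT and in 2.17% in prp1-G705D (Wilson interval 0.849% to 5.46%). Intron 1 of rpe1, the ribulose phosphate 3-epimerase of the pentose phosphate pathway, spans I:2995689-2995733 and stood at 5.13% and 1.79% in WT and at 3.43% in prp1-G705D. In both the prp1-G705D value fell between the WT values. For pfd3 edgeR gave a log2 change in the odds of -0.06 ± 0.77 (SE), without a call, where the median edgeR change over all introns was 3.22. Intron 1 of grx2, a glutaredoxin gene, stood at 63.2% and 74.5% in WT and at 68.1%, and intron 1 of SPCC569.03 at 70.7% and 70.8% in WT and at 66.2%, without a call for either.

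The 2 introns called lower were retained in nearly all reads in WT. Intron 2 of SPBPB21E7.11, an uncharacterized protein gene, stood at 97.7% and 98.1% in WT and at 92.9% in prp1-G705D (edgeR log2 change of -1.87 ± 0.67 SE, adjusted p = 0.00626). Intron 2 of dbp2, which encodes a DEAD-box RNA helicase, spans 699 nt and stood at 99.5% and 99.6% in WT and at 98.4% (log2 change of -1.74 ± 0.82 SE, edgeR adjusted p = 0.0371). DESeq2 and limma called neither, and without WT replicate 2 neither passed the exact test of Fisher at the same BH threshold.

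The genes of the tri-snRNP itself and of the Sm and LSm rings that surround snRNAs carried 39 tested introns in 19 genes, taken by symbol. Of these 37 rose and none fell, against the 91.3% higher among all tested introns, and the prp1-G705D share was above both WT libraries in all 39. Their median share was 32.2% in prp1-G705D and 4.50% and 4.56% in WT, against 38.2%, 4.88% and 5.95% over all introns. Intron 2 of lsm8, whose protein belongs to the LSm ring of U6, stood at 8.33% in WT replicate 1, at 0 of 41 reads in replicate 2, which allows a share of up to 7.32%, and at 65.4% in prp1-G705D (Wilson interval 54.3% to 74.99%). Intron 2 of lsm1, which belongs to the cytoplasmic LSm ring of mRNA decay, stood at 0 of 34 reads (up to 8.82%) and 1.03% in WT and at 44.4% in prp1-G705D. Intron 3 of sme1, an Sm ring gene, stood at 10% and 18.9% in WT and at 78.5%. Each of these introns stood far above its higher WT library.

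Introns of the same family also stayed low. Intron 1 of snu13, a U4 snRNA binding protein of the tri-snRNP, stood at 1.84% and 3.65% in WT and at 16.3% in prp1-G705D, and intron 3 of smd2 at 0 of 108 reads (up to 2.78%) and 2.52% in WT and at 11.5%. Intron 3 of lsm5, of the LSm rings, stood at 4.26% and 4.20% in WT and at 7.46% (Wilson interval 4.10% to 13.2%), with an edgeR log2 change of 0.87 ± 0.80 (SE) and an adjusted p of 0.288. Introns 1 and 2 of lsm5 stood at 34.3% and 16.7% in prp1-G705D, against 2.08% and 1.11%, and 4.08% and 0.9804%, in WT, and both rose. The other intron of the list without a call was that of prp38, a factor needed for spliceosome activation in budding yeast, at 54.5% and 69.2% in WT and 77.6% in prp1-G705D.

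**Figure D3:**
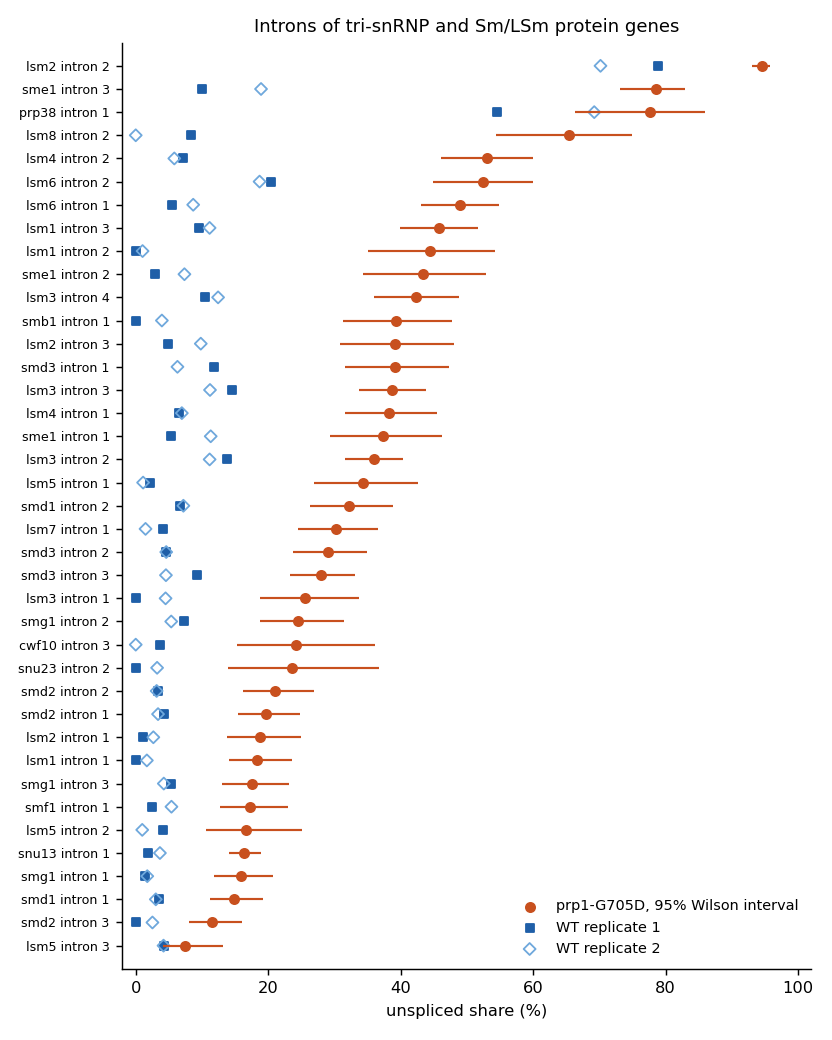
Unspliced share in percent (x axis) of the 39 tested introns of tri-snRNP and Sm/LSm protein genes (y axis, by gene and intron number), for prp1-G705D (orange, with its 95% Wilson interval) and each WT library (blue). The prp1-G705D point lies to the right of both WT points in every row, from 7.46% at lsm5 intron 3 to 94.5% at lsm2 intron 2.

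Among 62 introns of 29 other splicing factor genes 54 rose (87.1%, beside 91.3% of all tested introns) and none fell, with a median share of 32.7% in prp1-G705D and 2.78% and 5.21% in WT. Intron 1 of cwf29, for an RNA-binding protein of the spliceosome, rose most in points, from 6.35% and 11.4% in WT to 64.3%. Intron 1 of prp10, the SF3B1 gene of the U2 snRNP, stood at 3.45% and 5.36% in WT and at 46.7% in prp1-G705D. Intron 2 of prp10 stood at 93.3% and 88.9% in WT and at 95.5%, but in WT most spliced reads from its 5′ splice site used another 3′ splice site, which the unspliced share does not count. The smallest change was that of intron 1 of sap62, an SF3a gene, at 98.2% and 93.4% in WT and 97.5% in prp1-G705D, where no call was made.

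Introns of ribosomal and respiratory genes were read most deeply of the 10 lists and had lower shares in prp1-G705D than the median intron. Their median depth in prp1-G705D was 2162 and 637 reads, against 145 over all introns. The 86 introns of cytosolic ribosomal protein genes had a median of 16.03% in prp1-G705D and 3.22% and 3.51% in WT, and 81 rose (94.2%, beside 91.3% of all tested introns). Intron 1 of rpp202, for the ribosomal protein P2, stood at 0.100% and 0.487% in WT and reached 1.55% in prp1-G705D over 2521 reads, and it was still called higher (edgeR log2 change of 2.09 ± 0.59 SE, adjusted p = 0.000539). The intron of that list with the largest rise, rpp40 intron 3, belongs to a gene that the annotation gives as an RNase P subunit and that entered by its symbol. The 63 introns of respiratory chain and ATP synthase genes had a median of 19.0% in prp1-G705D and 3.12% and 3.37% in WT, and 60 rose (95.2%, beside the same 91.3%). Within that list intron 2 of atp1, the alpha subunit of the ATP synthase, reached 64.8% (WT 5.30% and 9.37%), while intron 1 of cox12, a subunit of cytochrome c oxidase, reached 6.34% (WT 3.70% and 2.19%).

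Genes of protein turnover stood next. The 83 introns of proteasome and ubiquitin genes had a median of 26.1% in prp1-G705D and 2.01% and 3.28% in WT, and 77 rose (92.8%, beside 91.3% of all tested introns). Intron 1 of rpt4, an ATPase of the proteasome cap, stood at 14.4% and 19.5% in WT and at 69.1%, and intron 2 of ubc15, a ubiquitin-conjugating enzyme, at 7.25% and 4% in WT and 7.69%, without a call. The 36 introns of chaperone genes had a median of 28.9%, and 34 rose (94.4%, beside the same 91.3%). The largest rise there was that of intron 2 of pfd6, another prefoldin subunit, from 5.76% and 5.30% to 51.8%, and the list also held the intron of pfd3 that had no call.

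The remaining lists lay closer to the median of all introns. The median was 33.1% over 127 introns of vesicle traffic genes (121 rose), 33.9% over 39 introns of translation factor genes (38 rose), 34.9% over 27 introns of meiosis and sporulation genes (24 rose) and 36.8% over 78 introns of cell cycle and cytoskeleton genes (78 rose). In these 4 lists 95.3%, 97.4%, 88.9% and 100% of the introns rose, beside 91.3% of all tested introns. Over all tested introns the depth of an intron in prp1-G705D and its share had a Spearman rho of 0.013 (2641 introns, which share libraries and genes). The medians of the 10 lists ran from 2.01% to 5.26% in the WT libraries, and in prp1-G705D each was below the 38.2% of all introns. Medians of intron length in the lists ran from 52 to 73.5 nt, and the part of length in these levels was not tested.

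**Figure D4:**
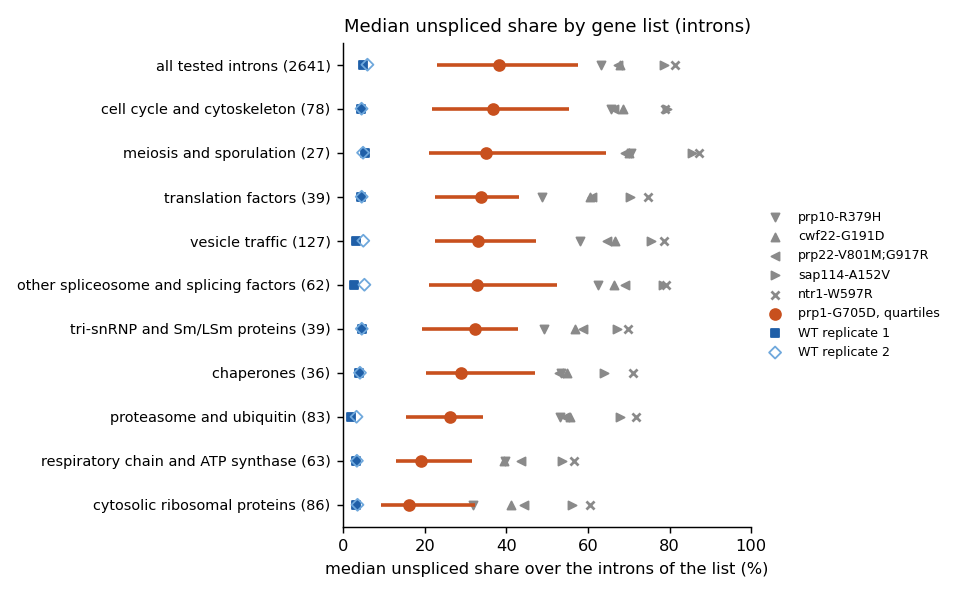
Median unspliced share in percent (x axis) over the introns of each gene list (y axis, number of introns in brackets) in every library; the orange bar spans the quartiles of introns in prp1-G705D. The prp1-G705D medians run from 16.03% for cytosolic ribosomal proteins to 38.2% for all 2641 introns, and each lies between the WT medians and those of the other 5 mutants.

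Well-studied introns of fission yeast showed the same range within single genes. The 3 introns of tbp1, the TATA-binding protein, were read deeply, with 7047, 3085 and 3274 reads in prp1-G705D. Intron 1 stood at 31.8% and 34.2% in WT and at 80.2% in prp1-G705D, intron 2 at 7.42% and 8.68% and at 55.0%, and intron 3 at 1.33% and 2.13% and at 27.1%. The order of the introns was the same in WT and prp1-G705D, and the Wilson intervals of the 3 prp1-G705D values did not overlap. Intron 2, which holds none of the searched branch motifs, had the larger rise in points than intron 3 and the smaller change in the odds, at 3.80 ± 0.40 against 4.36 ± 0.43 (log2, SE).

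The intron of cam1, the calmodulin gene, stood at 6.15% and 9.28% in WT and at 63.7% in prp1-G705D. The intron of atf1, a stress-response transcription factor, is the longest tested, at 855 nt in the 5′ UTR, and stood at 37.0% and 48.7% in WT and at 88.4%. In ubc4, a ubiquitin-conjugating enzyme gene, intron 1 of 79 nt stood at 0.712% and 1.07% in WT and at 9.85% in prp1-G705D, while intron 2 of 371 nt stood at 10.3% and 12.3% and at 44.0%. In nda3, the beta-tubulin gene, the 5 introns ran from 11.8% at intron 5 to 30.7% at intron 2 in prp1-G705D, with no WT value above 3.64%. In cdc2, the cyclin-dependent kinase gene, intron 1 in the 5′ UTR stood at 57.5% and 60.8% in WT and at 80.4%, and introns 2 to 5 ran from 17.3% to 52.0% with WT values from 1.37% to 12.5%. Of the 24 tested introns of these genes and of nda2, prp10, sap114 and dbp2, 23 rose (95.8%, beside 91.3% of all tested introns) and 1, in dbp2, fell.

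Introns of the same gene differed widely from each other. In the 677 genes with several tested introns the median SD of the prp1-G705D share within a gene was 13.5 points. Over those 1870 introns as a whole the SD was 21.6 points. The SD of a few introns tends to fall below that of a large set, so these values are not directly comparable. How far introns of a gene are alike was not tested. Among 50 genes with at least 4 introns of at least 50 reads in each library, the median range within a gene was 27.2 points in prp1-G705D and 8.97 points for the WT means. The narrowest ranges were those of vti1, a SNARE gene of vesicle fusion, whose 5 introns lay between 19.0% and 25.6%, and of cox12, whose 4 introns lay between 6.34% and 13.5%. The introns of vti1 measure from 37 to 164 nt, so their lengths differed more than their shares.

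The widest ranges were found in the oxysterol-binding protein genes osh41 and osh42 and in fkh1, which encodes a peptidyl-prolyl isomerase. In osh42 intron 1 reached 14.7% in prp1-G705D (WT 1.72% and 3.39%), intron 2 68.3% (WT 20% and 15.97%), intron 3 92.5% (WT 67.4% and 67.7%) and intron 4 65.9% (WT 1.85% and 2.5%). Introns 1 and 4 thus had like WT shares and differed by over 50 points in prp1-G705D. The sequences of these introns differ at the 5′ splice site, GTAAGT in intron 1 and GTACGT in intron 4, and at the branch motif, which was found in intron 1 alone. Introns 1 and 4 also differ in length, at 67 and 47 nt, and in the exon that follows, at 13 and 1399 nt. The part of any of these in the difference was not tested. In fkh1 intron 1 reached 80.2% (WT 62.4% and 59.5%) and intron 2 6.91% (WT 1.03% and 1.17%). In osh41 the 7 introns ran from 22.7% at intron 6 to 86.6% at intron 5, and their WT means already spanned 59.0 points.

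Features of the introns that the choice of members did not use went with the share. By length, the median share in prp1-G705D was 30.9% for introns of up to 45 nt (448 introns) and 29.6% for those over 45 nt and up to 60 nt (837 introns). It was 38.3% for those up to 120 nt (757 introns), 54.3% up to 200 nt (334 introns) and 74.2% beyond that (265 introns). The WT medians rose along the same classes, from 4% and 4.39% to 28.1% and 28.3%. The median log2 change in the odds stayed between 2.92 and 3.32 in the 5 classes. How a read was counted as unspliced is not given in the sources used here, and the part of the counting in the relation with length was not tested.

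Introns before the longest exons had the higher shares. Where the downstream exon was over 1000 nt (572 introns), the median was 49.4% in prp1-G705D and 6.27% and 7.09% in WT, and where it was up to 100 nt (547 introns) it was 34.3% in prp1-G705D and 4.41% and 5.32% in WT. The classes between had 34.95%, 33.7% and 38.7% in prp1-G705D. The longest and shortest classes also differed in the other mutants, at 76.3% and 57.4% in prp10-R379H, 77.1% and 61.7% in prp22-V801M;G917R and 80.5% and 60.4% in cwf22-G191D. They stood at 87.9% and 70.0% in sap114-A152V and at 89.8% and 74.8% in ntr1-W597R. Among introns of up to 60 nt these 2 classes stood at 35.6% (207 introns) and 28.0% (319 introns) in prp1-G705D, with WT values of 2.78% and 2.94%, and 3.33% and 3.91%. The place of an intron in its gene made less difference, with medians of 37.3% for first, 35.1% for middle and 36.7% for last introns, and 43.6% for the only intron of a gene. Across 2628 introns with an annotated gene, the length of the downstream exon had a Spearman rho of 0.202 with the prp1-G705D share, and 0.059 and 0.074 with the WT shares. These introns share genes and libraries, and no test was made.

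**Figure D5:**
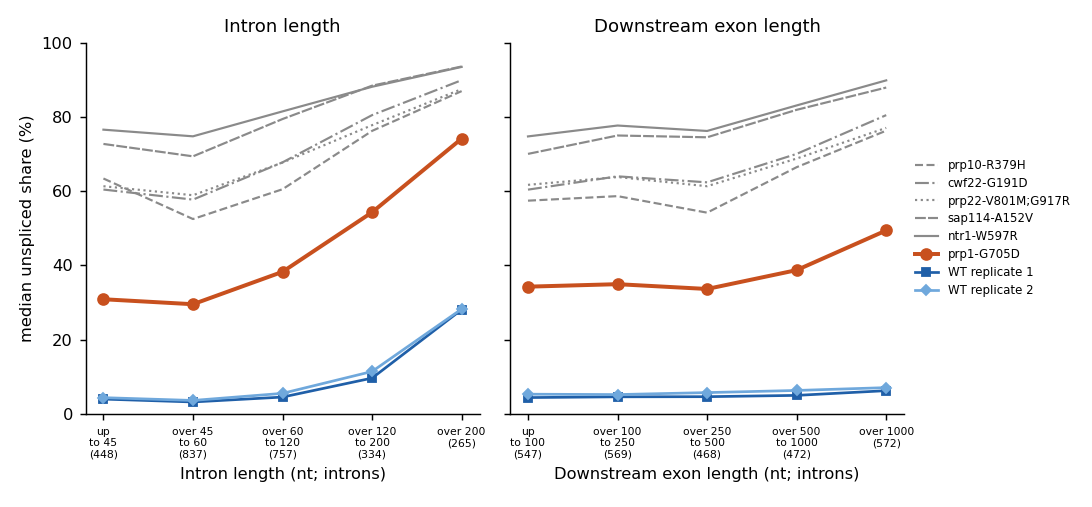
Median unspliced share in percent (y axis) by intron length (left) and by length of the downstream exon (right), both in nt with the number of introns in brackets, 1 line per library. The prp1-G705D line stands at 30.9% and 29.6% in the shortest length classes and climbs to 74.2% in the longest, stays from 33.7% to 38.7% over the downstream exon classes up to 1000 nt and reaches 49.4% beyond, and lies between the WT lines and the other 5 mutants in every class.

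The 5′ splice site sequence went with smaller differences. Introns that follow a G at the last base of the exon had a median of 36.4% in prp1-G705D (1509 introns), against 41.1% after A, 42.5% after C and 40.4% after T. In WT the same 4 classes ran from 4.49% to 5% in replicate 1 and from 5.59% to 6.09% in replicate 2. At base 4 of the intron, those with A had 36.6% (1305 introns) and those with C 44.9% (245 introns). The classes A and C at base 4 stood at 4.92% and 5.47% in WT replicate 1 and at 6.17% and 6.87% in replicate 2. They stood at 64.8% and 66.4% in prp10-R379H, at 67.6% and 69.2% in prp22-V801M;G917R, at 68.9% and 67.1% in cwf22-G191D, at 78.9% and 77.3% in sap114-A152V and at 82.3% and 81.2% in ntr1-W597R. Within introns of up to 60 nt the medians were 27.9% for A and 38.8% for C in prp1-G705D, while above 60 nt they were 48.8% and 47.1%. The other mutants also had the higher median for C among the short introns, with 56.7% and 64.0% in prp10-R379H, 57.3% and 65.8% in prp22-V801M;G917R, 58.0% and 62.3% in cwf22-G191D, 67.7% and 73.6% in sap114-A152V and 74.7% and 75.2% in ntr1-W597R. By branch motif the median in prp1-G705D was 37.5% for CTAAC (1189 introns), 36.7% for CTAAT (644 introns), 37.6% for CTGAC (148 introns) and 43.2% for CTGAT (62 introns). For the last of these the other mutants stood at 67.6% to 83.0%, and for CTAAC at 61.1% to 82.0%. Of the tested introns 1553 overlap a gene annotated on the other strand. Their median was 37.97%, against 38.8% elsewhere, and it is not stated whether the counting used strand.

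Among the 6 mutants prp1-G705D had the lowest retention. Over the 2514 introns with at least 20 reads in all 8 libraries, in 1363 genes, the median share was 37.5% in prp1-G705D, 62.4% in prp10-R379H, 66.9% in prp22-V801M;G917R, 67.4% in cwf22-G191D, 78.5% in sap114-A152V and 81.1% in ntr1-W597R. The other 5 averaged 71.3% ± 8.13 (SD, n = 5), which is 33.8 points higher, and an exact permutation test over libraries gave a two-sided p of 0.167, the smallest that 1 library against 5 allows. The prp1-G705D share was the lowest of the 6 in 2282 introns (90.8%) and the highest in 2 (0.0796%). In the next test the other 5 mutants, 1 library each of unlike genotypes, form 1 group. The p-values thus measure the spread between different mutants, not between replicates. The lone prp1-G705D library is assumed to vary in the same way. The calls also contain the shift of the whole library, which is taken off further below. In edgeR's quasi-likelihood F test against the other 5 mutants as a group 1168 introns (46.5%) were lower in prp1-G705D. None was higher, at an adjusted p or at an unadjusted p under 0.05, and limma and DESeq2 also called none higher. Without sap114-A152V the count of lower introns was 751.

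By size, the introns furthest below the other mutants included intron 1 of SPAC1F12.10C, for an NADPH-hemoprotein reductase. It stood at 38.3% in prp1-G705D and at 93.7%, 96.0%, 94.7%, 87.4% and 96.4% in prp10-R379H, sap114-A152V, cwf22-G191D, prp22-V801M;G917R and ntr1-W597R, with WT at 3.96% and 9.25%. Intron 1 of sec21, the gamma subunit of the coatomer coat of vesicles, stood at 38.6% in prp1-G705D, at 81.6% to 95.7% in the other mutants and at 7.69% and 3.23% in WT. Intron 6 of rpb1, the largest subunit of RNA polymerase II, stood at 9.38% against 43.9% to 85.0% (WT 2.5% and 1.54%). In cnt5 intron 2 stood at 29.8% in prp1-G705D against 77.9% to 96.1% in the other mutants, while intron 3 of the same gene, with the largest rise over WT, stood at 80.0% against 89.4% to 99.0%. Each of these introns lay below all 5 other mutants, as did 90.8% of the 2514 introns compared. All but cnt5 intron 3 were chosen as furthest below.

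When the median log odds of each library was set to a common level, no intron passed the edgeR test against the other 5 mutants in either direction. At an unadjusted p under 0.05 there were 192 higher and 112 lower, limma called 0 and 0, and the smallest adjusted p in edgeR was 0.142, at intron 1 of SPAC1F12.10C. Centred on the log odds of the summed reads instead, 76 were higher and 271 lower at an unadjusted p under 0.05, so the balance of directions turned with the centring, and again none passed the adjusted threshold. Relative to its own median, prp1-G705D lay within -1.28 and 1.46 (log2 odds, 5th and 95th percentiles of the difference from the mean of the other 5). The introns furthest above the other mutants on this scale were retained in WT too. The median log odds taken off was -0.73 in prp1-G705D and 0.72 to 2.09 in the other mutants. An intron with like shares in all mutants therefore lies above on this scale by its construction. Intron 1 of SPAC18B11.09C stood at 97.9% in prp1-G705D, 92.8% to 97.0% in the other mutants and 96.8% and 88.4% in WT. Intron 2 of scs2, a VAP family protein gene, stood at 69.9% in prp1-G705D, 59.0% to 67.7% in the other mutants and 58.3% and 56.0% in WT.

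The gene lists were read on both scales. Of the 39 tri-snRNP and Sm/LSm introns 9 (23.1%) were lower than in the other mutants in edgeR, of 80 proteasome and ubiquitin introns 58 (72.5%) and of 86 ribosomal protein introns 33 (38.4%), beside 46.5% of all 2514. In the other 7 lists the share ran from 34.9% (respiratory chain) to 60.8% (cell cycle and cytoskeleton). After the median was removed, the median difference from the other 5 mutants was 0.39 for the respiratory list, 0.35 for the tri-snRNP and Sm/LSm list, 0.20 for chaperones, 0.11 for translation factors and 0.02 for ribosomal proteins, in log2 odds, beside 0.03 over all introns. It was -0.05 for vesicle traffic, -0.14 for cell cycle and cytoskeleton, -0.16 for meiosis and sporulation, -0.19 for the other splicing factors and -0.29 for proteasome and ubiquitin. Across the 2514 introns the log odds in prp1-G705D had a Spearman rho from 0.767 (ntr1-W597R) to 0.877 (prp22-V801M;G917R) with the other mutants, and of 0.685 and 0.739 with the WT libraries, which were 0.771 with each other. Introns of 1 gene are not independent, and the libraries differ in depth.

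Few alternative splice junctions were called changed. An alternative junction was tested against the annotated junction that shares its splice site where the 3 libraries each held at least 20 reads of the pair, with at least 5 alternative reads over all 3, which gave 304 junctions. Their median share was 1.57% in prp1-G705D and 1.35% and 1.34% in WT. The edgeR test called 1 junction higher and 1 lower (0.329% each), and at an unadjusted p under 0.05 there were 9 and 16. With a minimum of 10 reads, over 329 junctions, edgeR called 0 in either direction. In ypt1, a Rab GTPase gene of vesicle traffic, a 5′ splice site 122 nt from that of intron 1 took 7.29% of reads in prp1-G705D and 2.19% and 3.18% in WT (log2 change of 1.45 ± 0.27 SE, edgeR adjusted p = 0.035). In rps1801, a ribosomal protein gene, a 5′ splice site 98 nt from that of its intron took 0.0472% in prp1-G705D and 1.05% and 1.59% in WT (log2 change of -4.72 ± 0.84 SE, edgeR adjusted p = 0.035). Neither change was particular to prp1-G705D. By read counts, the ypt1 site took a larger share in every other mutant than in prp1-G705D. The share of the rps1801 site was below both WT libraries in every other mutant. No test was made of these junctions in the other mutants. In prp10 the other 3′ splice site of intron 2, 19 nt away, took 52.6% of spliced reads in prp1-G705D and 75% and 66.7% in WT, without a call.

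Summed over all junctions, reads at other 3′ splice sites came to 0.414% of reads at annotated junctions plus their own in prp1-G705D and to 0.455% and 0.419% in WT. For other 5′ splice sites the values were 0.247% in prp1-G705D and 0.312% and 0.281% in WT. Junctions that the authors classed as new introns came to 6.88% in prp1-G705D and to 6.85% and 6.82% in WT, over 6512 such junctions. Junctions classed by the authors as another pairing of sites came to 1.36% in prp1-G705D and to 1.17% and 1.24% in WT. The prp1-G705D sums thus lay below both WT libraries for other splice sites and above both for new introns and other pairings. For new introns the Wilson interval of prp1-G705D overlapped those of both WT libraries, and for other 3′ splice sites that of WT replicate 2. The differences of new introns from both WT libraries and of other 3′ splice sites from WT replicate 2 were thus within counting error. For other 3′ splice sites the interval of prp1-G705D, 0.399% to 0.430%, lay below that of WT replicate 1, 0.434% to 0.477%. Set against the spliced plus unspliced reads of annotated introns plus their own, new introns came to 4.10% in prp1-G705D and 6.09% and 6.01% in WT, and all 4 classes were lower in prp1-G705D than in both WT libraries. No test was made on these sums.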

How the data were processed

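The authors deposited 1 table of read counts per splice junction, with spliced and unspliced counts for each library, per the file headers. Per the submitters' processing notes, STAR 2.5 and bedtools 2.26 were run on the build ASM294v2. The read length, the annotation and the rule for calling a read unspliced are not given in the sources used. Of 5144 annotated introns 5077 matched an intron of the reference ASM294v3 at both ends, and gene symbols, intron numbers and sequences came from that annotation.

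Introns with at least 20 reads in the prp1-G705D and both WT libraries were tested. Introns just inside that minimum (20 to 24 reads in the shallowest library, 322 introns) had a median share of 44.9% in prp1-G705D and those just outside (15 to 19 reads, 453 introns) 43.8%. The main test was the quasi-likelihood F test of edgeR 4.0.16 in R 4.3.3, run on the deposited counts, with 1 coefficient per library and 1 of unspliced over spliced per group, which leaves scaling between libraries out. It had 1 residual degree of freedom against WT and 4 against the other 5 mutants. For introns against WT the prior degrees of freedom were infinite, so the quasi-likelihood spread was that of all introns together. Adjustment was by BH at 0.05 over all introns tested, log odds used a pseudocount of 0.5, and intervals are Wilson's at 95%. An upper limit for a share of 0 is 3 reads of the total. The tests were tried on simulated counts. Other software was pandas 2.3.3 and matplotlib 3.10.9 in Python 3.11.15, scipy 1.17.1 with numpy 2.4.6, DESeq2 1.42.0 and limma 3.58.1.

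The members, 10 gene lists (by symbol) and single genes were chosen with earlier results of these data known. Introns named were the 6 lowest signed changes, falls included, and the 12 largest rises in points, 1 per gene. The 6 introns furthest on each side of the other mutants were added, again 1 per gene. So were the extremes of each list and of genes with at least 4 introns. These choices used a minimum of 50 reads in prp1-G705D and both WT libraries, or in the mutant libraries alone against the other mutants. All tested introns of 10 single genes and of the tri-snRNP list were named without that minimum. The 6 alternative junctions with the largest changes or a call were also named, and the text gives a selection of all these. Other settings tried were the minimum of reads, the tool, the pseudocount, the scaling, overlap with other genes and leaving out each library.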

Additional observations from a re-analysis of the deposited data

How the results depend on the processing

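The difference in median share, 32.8 points, was 34.9 with a minimum of 10 reads, 29.4 with 50, 36.8 with no minimum beyond 1 read and 29.5 over summed reads. Without a WT library it ran from 32.2 to 33.3. For the calls against WT below, leaving out a WT library meant Fisher's exact test of 1 library against 1. That test holds no spread between libraries, so its counts do not come from the edgeR test. Introns called higher than WT numbered 1388 with a minimum of 50 reads and 996 among introns that overlap no other gene, and 2349 to 2455 without a WT library, as fewer introns were tested in the first 2 settings. DESeq2 called 1995 and limma 2251. Introns called lower numbered 1 without overlap and in the fit of all 8 libraries, and 0 in DESeq2, in limma with either pseudocount, and for unspliced counts alone under TMM or DESeq2 size factors; without a WT library they ran from 0 to 2. Lower than the other 5 mutants were 760 introns with a minimum of 50 reads, and from 751 to 1365 without 1 of those mutants; relative to the median these counts ran from 0 to 2 higher and 0 to 1 lower. Alternative junctions called higher were 0 with a minimum of 10 reads or none and 1 to 2 without a WT library; those called lower were 0 with a minimum of 10 reads or none, 2 with 50 reads, 3 in limma and 1 to 5 without a WT library. Of 6 named introns that changed sign, 5 had no call. These were mug161 intron 3 (-0.53 for unspliced counts alone under both scalings), sap62 intron 1 (-0.082 without WT replicate 2), rpe1 intron 1 (-0.66 without WT replicate 2, -0.019 under TMM and -0.026 under size factors), pfd3 intron 1 (0.017) and grx2 intron 1 (0.32), both without WT replicate 2. SPBPB21E7.11 intron 2 turned to 0.12 under TMM and 0.11 under size factors. Where the tables show no reason, the cause was not tested. Single introns against WT kept direction and call in 1356 of the settings run, lost the call in 40 and changed sign in 10. No paired analysis was possible because each mutant had 1 library and no replicate number. One mutant library, and the depth of WT replicate 1, limit what can be said of single introns.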
